A study of Homo sapiens with 4 samples.

Results

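E-cadherin (CDH1), N-cadherin (CDH2), the cadherin-bound catenins and the desmosome genes were followed in Huh7, an established line of human hepatocellular carcinoma cells. The 10 genes are the cadherins CDH1 and CDH2, the catenins CTNNA1, CTNND1 and JUP, and the desmosome genes DSP, DSG2, DSC2, PKP2 and PKP3. They were taken by gene name out of 42067 gene names in the deposited tables, and each is represented by the transcript row selected on its read total, the highest over the 4 libraries. The genes themselves were chosen by what earlier results showed of H2O2 against mock in these same libraries. Treated cells had received 300 µM hydrogen peroxide (H2O2) and control cells a mock treatment, both over 4 days with daily renewal of the medium. Each group had 2 libraries, titled with the letters H and Q, whose meaning the labels do not explain. Values of a group are given for its library H and then its library Q. Nothing in the labels says that the libraries of a group came from separate cultures, so the errors measure the spread between libraries, which may be technical. All cells were of 1 tumour-derived line.

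Cadherins are membrane proteins that hold neighbouring cells together. At adherens junctions the tail of E-cadherin binds p120-catenin (CTNND1) and either beta-catenin (CTNNB1) or plakoglobin (JUP), and alpha-catenin (CTNNA1) links that complex to actin. At desmosomes the desmogleins (DSG) and desmocollins (DSC) bind plakoglobin and the plakophilins (PKP), and desmoplakin (DSP) anchors the plaque to keratin filaments. Hepatocytes carry E-cadherin and N-cadherin together and form desmosomes, and in cultured carcinoma cells loss of E-cadherin is a textbook mark of a less epithelial state.

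The libraries held 83462944 and 86492977 mapped read mates in the H2O2 pair, and 78126878 and 88409567 in the mock pair. Levels are CPM, the read counts of the row used scaled to library size with TMM factors. Differences are log2 of H2O2 over mock from edgeR, given with a standard error (SE) derived from the edgeR test. All 9 hepatocyte markers examined passed the read filter, and their summed level was 19750 and 10990 CPM in the H2O2 pair against 17160 and 5098 CPM in the mock pair, so both letter Q libraries, and mock Q most, lay below their letter H partners. The 5 bile duct markers summed to 263 and 598 CPM in the H2O2 pair and 247 and 687 CPM in the mock pair. That was over 2 times as high in library Q of each group, mostly through SPP1. SPP1 measured 126 and 477 CPM in H2O2 and 103 and 562 CPM in mock. SOX9, the other main one, was slightly lower in library Q, at 136 and 117 CPM in H2O2 and 142 and 121 CPM in mock. The part of these markers in the results was not tested. Markers of fibroblasts and endothelium were low. The summed level of 6 fibroblast markers was 15.8 to 18.2 CPM in H2O2 and 20.5 to 26.0 CPM in mock, most of it COL1A1, with LUM at 0 in H2O2 library H, and that of 5 endothelial markers 2.63 to 2.93 CPM in H2O2 and 2.42 to 3.24 CPM in mock. The 6 blood and immune markers summed to 77.1 and 97.9 CPM in H2O2 and 52.6 and 83.2 CPM in mock, nearly all of it CD68, a lysosomal protein, while the leukocyte marker PTPRC stayed between 0.0783 and 0.176 CPM in H2O2 and 0.0517 and 0.272 CPM in mock, and the globin HBB had 0 reads in both H2O2 libraries and 2 in each mock library. In such bulk samples, fewer cells that carry a transcript and less of it per cell cannot be told apart.

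The 9 genes past the read filter were all lower in H2O2, with the differences concentrated in CDH1 and JUP. By direction alone 52.8% of all genes tested were lower. The median difference of the 9 was −0.44, against −0.03 over all 27702 genes tested. The groups did not overlap for 7 of the 9, all lower in H2O2, where 21.3% of all genes tested were separated in that direction. Among the 9973 genes with an mRNA row and a mean of at least 10 CPM that share was 13.8%. Of these genes 40.7% were lower, and their median difference was 0.07. In the test over all genes 0 of the 9 passed an adjusted p of 5%, as did 0% of all genes (edgeR, 0 of 27702). Without adjustment 4 of the 9 and 1899 of all genes (6.86%) had p under 0.05. DESeq2 called 2 of the 9 and 138 of all genes (0.508%), and edgeR with the letter as a block called 2 of the 9 and 42 of all genes (0.152%). Because the genes were chosen with results of this contrast known, their counts and levels are a description and nothing is read from them. The count of 9 lower held without each library in turn, while the median moved to −0.82 without H2O2 library Q.

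**Figure D1:**
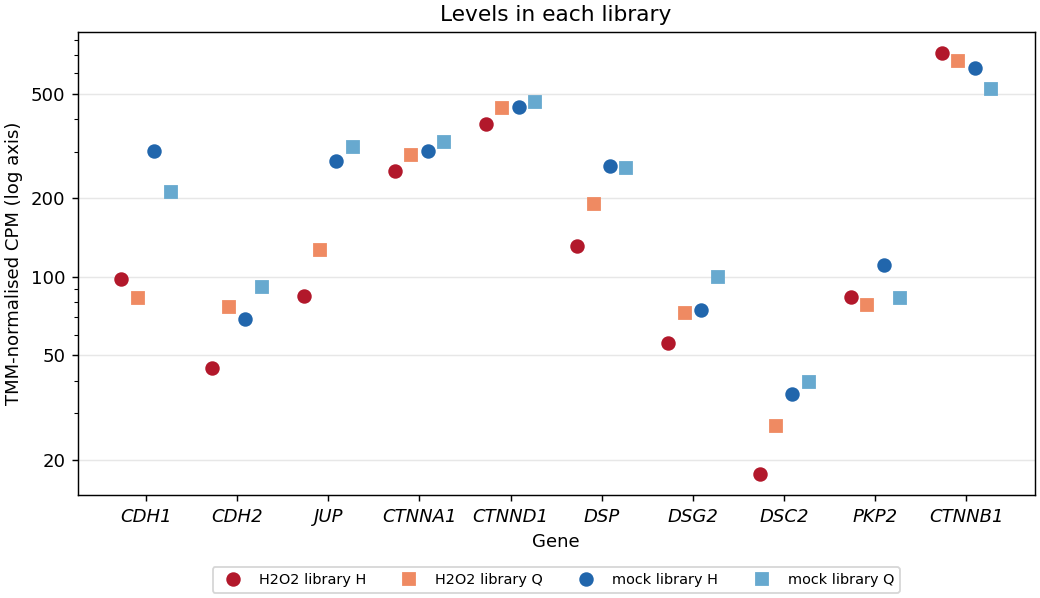
TMM-normalised CPM on a log axis for 9 of the genes and for CTNNB1, with 1 point per library and H2O2 libraries left of mock libraries. CDH1 and JUP lay far below mock in both H2O2 libraries, while CDH2 and PKP2 overlapped between the groups.

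CDH1, on the plus strand of chromosome 16, measured 97.8 and 82.6 CPM in the H2O2 pair, against 301 and 211 CPM in the mock pair. Both H2O2 libraries lay well below both mock libraries, and the gap between groups exceeded the gap between the mock libraries. The mean was 90.2 ± 10.7 CPM in H2O2 and 256 ± 64.2 CPM in mock (SD, n = 2 each), a 2.84-fold lower level in H2O2 (−1.51, SE 0.26). The letters gave −1.62 (H) and −1.35 (Q). Only 1.66% of all genes tested had a more negative difference. Among the genes with an mRNA row and at least 10 CPM on average, CDH1 was 19th from the lowest and JUP 21st of 9973.

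CDH2, on the minus strand of chromosome 18, encodes the other classical cadherin of hepatocytes. It measured 44.9 and 76.6 CPM in the H2O2 pair, against 68.8 and 91.2 CPM in the mock pair. H2O2 library Q lay above mock library H, so the groups overlapped, and in both groups library Q was the higher one. The difference was −0.40 (SE 0.32), from −0.61 within letter H to −0.25 within letter Q, and it shrank to −0.06 without H2O2 library H and was −0.82 without H2O2 library Q. CDH2 was thus not higher in H2O2 within either letter, over all libraries or in these fits with a library left out.

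The balance of the pair can be read within a library, where library scaling has no part. Per kilobase of transcript, CDH1 reads were 1.93 and 0.955 times CDH2 reads in the H2O2 pair, and 3.88 and 2.05 times in the mock pair. CDH1 made up 65.8% and 48.9% of the 2 together in H2O2, and 79.5% and 67.2% in mock. Both the treatment and the letter went with the ratio: H2O2 library H (1.93) and mock library Q (2.05) lay close together, so the group gap was clear within each letter but narrow across letters.

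**Figure D2:**
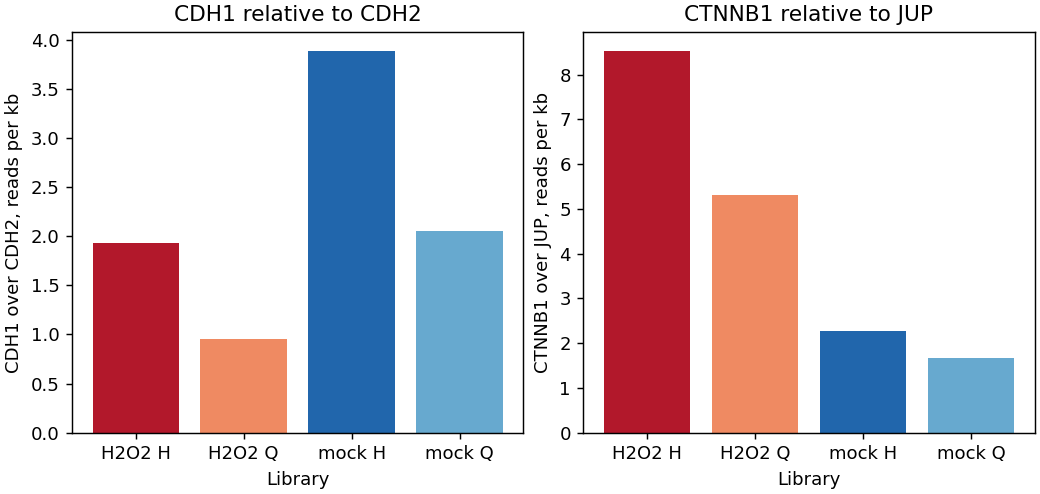
Reads per kilobase of CDH1 over CDH2 (left) and of CTNNB1 over JUP (right) in each library, H2O2 libraries first. The first ratio was lower in H2O2 within each letter, and the second was higher in both H2O2 libraries (8.52 and 5.31) than in both mock libraries (2.27 and 1.67).

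Among the catenins, JUP stood apart. JUP (minus strand of chromosome 17) encodes plakoglobin, the catenin shared by adherens junctions and desmosomes. It measured 84.3 and 126 CPM in the H2O2 pair, against 276 and 312 CPM in the mock pair. Both H2O2 libraries lay far below both mock libraries, and library Q was the higher of each group. The mean was 105 ± 29.7 CPM in H2O2 and 294 ± 25.4 CPM in mock (SD, n = 2 each), a 2.80-fold lower level (−1.48, SE 0.27), with −1.71 for the H libraries and −1.31 for the Q libraries.

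Beta-catenin, the close relative of plakoglobin and a Wnt effector, is not among the 10 genes but fills the same place on the E-cadherin tail. CTNNB1 measured 713 and 666 CPM in the H2O2 pair, against 624 and 519 CPM in the mock pair (0.27, SE 0.23). The groups did not overlap, in the opposite direction to JUP. Of all genes 18.1% were separated upward. Among the 9973 genes with an mRNA row and a mean of at least 10 CPM, 2496 were. Per kilobase, CTNNB1 was 8.52 and 5.31 times JUP in the H2O2 pair and 2.27 and 1.67 times JUP in the mock pair. The excess of CTNNB1 over JUP was larger in H2O2 within each letter and across letters.

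CTNNA1, alpha-catenin (plus strand of chromosome 5), measured 253 and 290.3 CPM in the H2O2 pair, against 302 and 327 CPM in the mock pair (−0.21, SE 0.21). CTNND1, p120-catenin (plus strand of chromosome 11), measured 384 and 439.7 CPM in the H2O2 pair, against 444 and 465 CPM in the mock pair (−0.14, SE 0.21). The groups of both genes were separated by a small step, about as large as the SE for CTNNA1 and smaller for CTNND1. Per kilobase, CTNNA1 was 3.37 and 4.58 times CDH1 in the H2O2 pair and 1.31 and 2.02 times CDH1 in the mock pair. For CTNND1 the multiples were 3.04 and 4.12 in the H2O2 pair and 1.14 and 1.71 in the mock pair. Transcripts of alpha-catenin and p120-catenin thus exceeded that of E-cadherin by more in both H2O2 libraries than in either mock library.

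CTNND1 has many splice forms, and its 22 rows in the tables include rows that differ in single exons. Exons near the start decide where translation begins. With the first start codon the long p120 isoform is made, which is typical of mesenchymal cells. Without it translation begins further in, as in many epithelial cells. The letters below are the coding part of the exon that holds the first start codon and of 3 optional exons further down. They are from GENCODE v29 on GRCh38, plus strand, and the capitals mark the first start codon.
CTNND1, exon of the first start codon, chr11:57791479-57791673: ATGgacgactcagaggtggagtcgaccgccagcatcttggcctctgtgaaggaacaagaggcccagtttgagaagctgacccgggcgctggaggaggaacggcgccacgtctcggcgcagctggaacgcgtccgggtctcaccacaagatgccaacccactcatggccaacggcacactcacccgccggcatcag
CTNND1, 18-base exon, chr11:57806461-57806478: atgagtggttctccagag
CTNND1, 63-base exon, chr11:57814311-57814373: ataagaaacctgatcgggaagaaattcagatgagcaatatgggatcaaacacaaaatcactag
CTNND1, 87-base exon, chr11:57815915-57816001: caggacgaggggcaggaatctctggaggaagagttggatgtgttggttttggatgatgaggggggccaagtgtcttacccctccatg

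For rows whose models differ in 1 exon alone, the difference in counts was taken as that exon's reads. How reads were counted is not given, so that reading was not tested. Pairs of rows gave the same number: 5 of 5 pairs for the 18-base exon, 5 of 5 for the 87-base exon and 3 of 3 for the 63-base exon. The pairs rest on the same reads, so their agreement describes the counting and is not repeated support. Shares are of the count of the row used, which may hold a read more than 1 time, and not of distinct reads. The 289-base exon of the first start codon held 3.19% and 2.99% of CTNND1 reads in the H2O2 pair (1250 and 1574 reads), against 2.26% and 2.66% in the mock pair (970 and 1500 reads), a value from 1 pair of rows. Some rows hold only the last 180 bases of it, which begin after the first start codon, so reads of this exon are not reads of the long isoform alone. Those 180 bases, which 5 of 5 pairs of rows gave alike, held 2.26% and 2.17% in the H2O2 pair, against 1.63% and 2.06% in the mock pair. Here the Wilson 95% intervals of the Q libraries overlapped (2.05% to 2.30% in H2O2 and 1.94% to 2.18% in mock). The noncoding 119-base exon before it held 2.10% and 1.87% in the H2O2 pair (825 and 982 reads), against 1.46% and 1.42% in the mock pair (627 and 802 reads; 2 of 3 pairs of rows gave these numbers). Both H2O2 libraries lay above both mock libraries for each of these, although CTNND1 as a whole was slightly lower in H2O2. The Wilson 95% intervals of the 119-base exon did not meet between groups, at 1.97% to 2.25% and 1.75% to 1.99% in H2O2 and 1.35% to 1.58% and 1.33% to 1.52% in mock; they cover counting error only, and the difference between libraries was not tested.

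The exon of 72 bases that follows held 1.98% and 1.82% in the H2O2 pair, against 1.28% and 1.76% in the mock pair, so here mock library H alone was low. The optional exons towards the other end of the gene differed little. The 63-base exon held 3.65% and 3.70% in the H2O2 pair against 3.59% and 3.52% in the mock pair, and the 87-base exon 1.83% and 1.83% in H2O2 against 1.90% and 1.85% in mock. The 18-base exon held 0.962% and 0.971% in H2O2, against 0.98% and 1.13% in mock, with mock library Q alone above the rest. The annotated genes AP001931.1 and TMX2-CTNND1 cover 289 and 321 bases of the CTNND1 model on the same strand, so some reads of the first exons may belong to them, and their part in the difference was not tested. Genes annotated on the opposite strand cover 212 bases of the CDH1 model, 136 of CDH2 and 171 of DSG2, and reads of the 2 strands cannot be told apart without the strand setting.

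**Figure D3:**
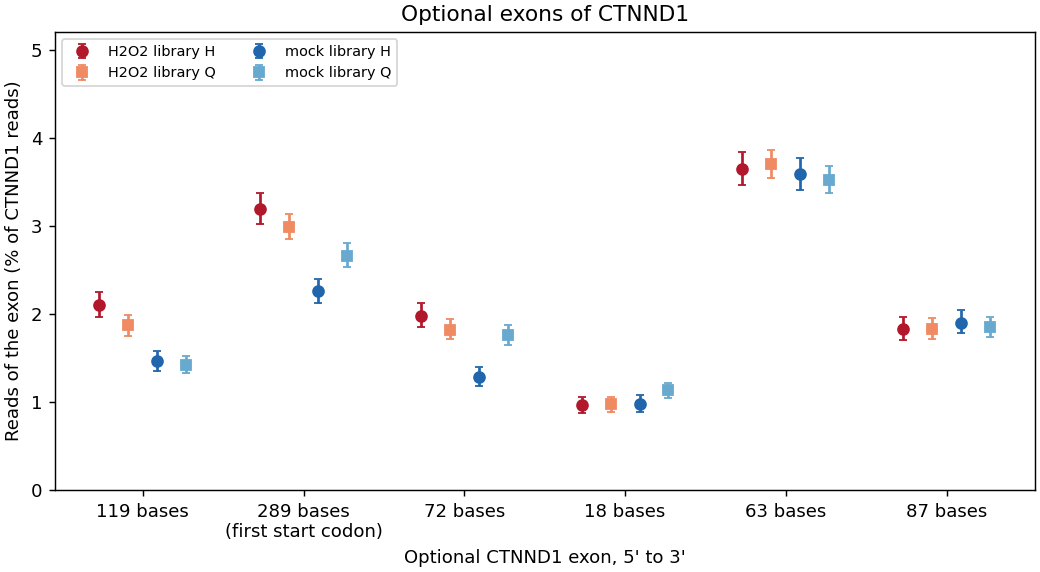
Count differences between rows, taken as reads of 6 optional CTNND1 exons, as a percentage of the count of the CTNND1 row used in each library. Exons run from the start to the end of the gene. Bars are Wilson 95% intervals for counting error. The 119-base and 289-base exons lay higher in both H2O2 libraries, and the exons of 63 and 87 bases lay at about the same share in all libraries.

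Of the desmosome genes, DSP and DSC2 showed the next largest differences after CDH1 and JUP. DSP (plus strand of chromosome 6), which encodes desmoplakin, measured 131 and 189 CPM in the H2O2 pair, against 263 and 259.7 CPM in the mock pair. The mock libraries almost coincided, and both H2O2 libraries lay below them, library H furthest. The mean was 159.8 ± 41.1 CPM in H2O2 and 262 ± 2.60 CPM in mock (SD, n = 2 each; −0.71, SE 0.25), with −1.01 within letter H and −0.46 within letter Q.

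DSC2 (minus strand of chromosome 18), the desmocollin of simple epithelia, measured 17.6 and 26.8 CPM in the H2O2 pair, against 35.6 and 39.7 CPM in the mock pair (−0.76, SE 0.26). It followed DSP closely, with −1.01 within letter H and −0.56 within letter Q. Without H2O2 library H the differences were −0.47 for DSP and −0.49 for DSC2, the smallest with any library left out. DSG2 (plus strand of chromosome 18), the desmoglein found in all desmosome-bearing tissues, measured 55.8 and 72.8 CPM in the H2O2 pair, against 74.4 and 99.9 CPM in the mock pair (−0.44, SE 0.25). Its groups were barely separated, H2O2 library Q lying just under mock library H, while the differences within letters were alike at −0.42 and −0.46. Without mock library Q the difference was −0.21.

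PKP2 (minus strand of chromosome 12), the plakophilin of simple epithelia and heart, measured 83.9 and 77.6 CPM in the H2O2 pair, against 111 and 83.1 CPM in the mock pair (−0.27, SE 0.22). The groups overlapped, and without mock library H the difference was −0.04. PKP3 (plus strand of chromosome 11), a plakophilin of most stratified and many simple epithelia, had 8 and 13 reads in the H2O2 pair, against 7 and 9 reads in the mock pair. It did not pass the filter of at least 10 reads in at least 2 libraries and was not tested; at 0.0783 and 0.109 CPM in H2O2 and 0.0723 and 0.0743 CPM in mock it was barely detected in any library.

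**Figure D4:**
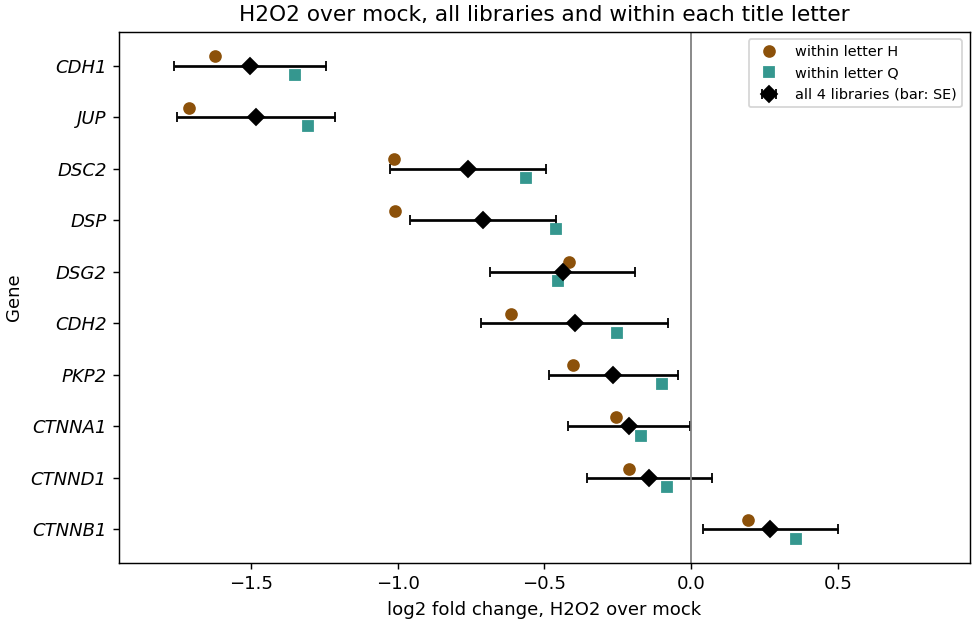
Log2 fold change of H2O2 over mock for 9 of the genes and CTNNB1 from all 4 libraries (diamonds, bars give the SE) and within letter H (circles) and letter Q (squares). CDH1 and JUP lie near −1.5, DSC2 and DSP near −0.7, the other 5 closer to 0, and CTNNB1 above 0.

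Per kilobase the order of levels was much the same in every library at its ends. CTNNA1 and CTNND1 lay at 67.3 and 60.8 CPM per kilobase in H2O2 library H and 77.3 and 69.7 in H2O2 library Q, against 80.5 and 70.3 in mock library H and 87.1 and 73.7 in mock library Q. JUP was well under them in H2O2, at 24.1 and 36.1 CPM per kilobase, and level with them in mock, at 79.0 and 89.3. CDH1 lay at 20 and 16.9 CPM per kilobase in the H2O2 pair, near DSP (13.4 and 19.3), PKP2 (19.8 and 18.3) and CDH2 (10.4 and 17.7), whose order is not resolved beyond the spread of libraries. In mock it lay above those 3, at 61.6 and 43.1, against 26.9 and 26.5 for DSP, 26.2 and 19.6 for PKP2 and 15.9 and 21.1 for CDH2. DSG2 and DSC2 came below these in every library, at 9.57 to 12.5 and 3.65 to 5.56 CPM per kilobase in H2O2 and 12.8 to 17.1 and 7.38 to 8.23 in mock.

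Splice forms of the desmosome genes were read in the same way from pairs of rows. Reads of the rod segment that sets desmoplakin I apart from the shorter desmoplakin II made up 12.1% and 11.4% of DSP reads in the H2O2 pair, against 11.2% and 10.4% in the mock pair. The H2O2 libraries lay above by a small step, and the Wilson intervals of H2O2 library Q (11% to 11.8%) and mock library H (10.8% to 11.6%) overlapped. In GENCODE that difference covers 1984 bases, 1797 of them coding, since the ends of the models differ as well. The coding part of the exon that sets desmocollin 2b apart is shown because the files count this form as a row of its own; it lies on the minus strand, from GENCODE v29 on GRCh38.
Desmocollin 2b exon, chr18:31068312-31068344: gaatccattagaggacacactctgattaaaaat
The DSC2 rows differed by 30 and 64 reads in the H2O2 pair, against 56 and 126 reads in the mock pair, which is 1.67% and 1.99% of DSC2 reads in H2O2 and 1.62% and 2.62% in mock. The GENCODE model of the row without this exon holds 7545 further bases, so the values compare rows and not the exon alone. The groups overlapped, so no shift of desmocollin 2b beyond the spread between libraries was detectable.

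The promoter windows of 4 of the genes are shown because E-box letters of the form CACCTG, which SNAI and ZEB repressors of CDH1 are known to bind, occur in them. Each is the 250 bases before a RefSeq start on GRCh38.p14, read 5′ to 3′ on the gene's strand; capitals mark CACCTG (written CAGGTG on the other strand) and CAGCTG.
DSP, chr6:7541421-7541670, plus strand: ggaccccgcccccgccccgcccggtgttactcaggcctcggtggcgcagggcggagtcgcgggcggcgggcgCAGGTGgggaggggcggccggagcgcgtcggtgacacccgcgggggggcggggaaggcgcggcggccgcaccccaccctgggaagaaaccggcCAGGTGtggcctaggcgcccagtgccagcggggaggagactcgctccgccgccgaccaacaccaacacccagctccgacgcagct
JUP, chr17:41785977-41786226, minus strand: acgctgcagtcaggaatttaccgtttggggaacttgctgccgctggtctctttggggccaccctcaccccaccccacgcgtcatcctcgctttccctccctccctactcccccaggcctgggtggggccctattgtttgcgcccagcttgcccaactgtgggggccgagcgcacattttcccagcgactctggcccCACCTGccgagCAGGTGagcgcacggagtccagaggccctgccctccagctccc
DSG2, chr18:31497927-31498176, plus strand: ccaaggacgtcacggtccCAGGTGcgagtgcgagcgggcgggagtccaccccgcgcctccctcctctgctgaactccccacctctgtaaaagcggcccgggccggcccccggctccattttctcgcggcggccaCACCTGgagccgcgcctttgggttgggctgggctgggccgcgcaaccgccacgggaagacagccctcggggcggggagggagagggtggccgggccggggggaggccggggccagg
DSC2, chr18:31102422-31102671, minus strand: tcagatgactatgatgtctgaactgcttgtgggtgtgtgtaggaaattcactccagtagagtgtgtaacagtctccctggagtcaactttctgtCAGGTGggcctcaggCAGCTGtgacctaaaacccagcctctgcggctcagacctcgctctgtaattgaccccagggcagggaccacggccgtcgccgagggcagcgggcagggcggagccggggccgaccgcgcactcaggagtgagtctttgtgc
The RefSeq table held windows for CTNNA1, DSP, JUP, CDH2, DSC2 and DSG2. On either strand, CACCTG occurred 2 times each in the DSP, JUP and DSG2 windows shown and 1 time in that of DSC2, and in none of the windows of CDH2 and CTNNA1 or at the other starts of JUP and DSC2. CAGCTG occurred in the DSC2 window shown and in windows of CTNNA1. Of all 35116 windows, a share of 17.5% held CACCTG, 14.0% held CAGCTG and 61.8% the wider form CANNTG, which includes both. These shares are per window, while CTNNA1, JUP, CDH2 and DSC2 each had more than 1 window. Counts by gene therefore cannot be set against them, and the windows shown were picked for holding CACCTG. These matches describe letters only, and which start the cells used was not measured.

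Known regulators of CDH1 showed a mixed picture. Of 12 repressors listed, 8 passed the filter, 4 lower and 4 higher, with a median of 0.22 that turned to −0.18 without H2O2 library H. The repressor ZEB1 measured 43.3 and 49.4 CPM in the H2O2 pair, against 18.04 and 27.8 CPM in the mock pair (1.02, SE 0.27), and SNAI1 23.9 and 11.2 CPM in H2O2 against 8.16 and 8.47 CPM in mock (1.08, SE 0.39), which was 0.43 without H2O2 library H. ZEB2, low at 0.568 and 4.31 CPM in H2O2 and 0.475 and 2.57 CPM in mock, followed the letter rather than the group (0.68, SE 1.12), and its difference turned to −1.41 without H2O2 library Q and −0.07 without mock library H. Of 10 epithelial activators 7 were lower, with a median of −0.34. The epithelial factors EHF (−1.34, SE 0.30) and OVOL2 (−1.32, SE 0.26) and the hepatocyte factor HNF4A (−0.63, SE 0.34) had the largest differences among those with a mean of at least 1 CPM. HNF4A, which is also one of the hepatocyte markers, was −0.11 without mock library H, the library in which it was high, and the median of the list was −0.72 without H2O2 library Q.

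The other desmosome genes leaned the same way as those above, mostly at low levels. Of 10 listed 7 passed the filter, 6 lower and 1 higher, with a median of −0.40. The groups of 3 were separated downward, as were those of 21.3% of all genes tested. PERP, a membrane protein of desmosomes and a p53 target, measured 97.9 and 128 CPM in the H2O2 pair, against 169 and 202 CPM in the mock pair (−0.72, SE 0.23). The plaque protein periplakin, PPL, measured 7.61 and 25.7 CPM in the H2O2 pair and 16.1 and 54.9 CPM in the mock pair (−1.09, SE 0.78). Its letters differed more than its groups, and the difference was 0.04 without mock library Q. DSC3 was at −0.40 (SE 0.23). Of 7 keratins, the filaments to which desmosomes attach, 6 were lower with a median of −0.40, but 3 were lower and the median was 0.07 without mock library Q. KRT18, a main keratin of hepatocytes, was at −0.40 (SE 0.31). KRT80 was at −0.49 (SE 0.35), and KRT7 at 0.52 (SE 0.84) turned to −1.11 without H2O2 library Q.

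Other adherens junction genes showed little net difference. Of 21 listed 20 passed the filter, 12 lower and 8 higher, with a median of −0.05 next to −0.03 for all genes. CTNNAL1, an alpha-catenin relative, measured 138 and 109 CPM in the H2O2 pair, against 61.0 and 64.0 CPM in the mock pair (0.98, SE 0.21), the largest upward difference among the adherens junction genes. ARVCF, of the p120 family, was at −0.43 (SE 0.25) and MLLT4, the actin-binding afadin, at −0.30 (SE 0.22). Among other cadherins 18 of the 28 that passed, out of 35 listed, were lower, with a median of −0.17. CDH17, the liver-intestine cadherin, measured 28.1 and 45.5 CPM in the H2O2 pair, against 121 and 100.4 CPM in the mock pair (−1.59, SE 0.29), close to the difference of CDH1. CDH12 measured 1.41 and 1.35 CPM in H2O2 and 3.88 and 3.59 CPM in mock (−1.43, SE 0.25), and PCDH7, which ranged from −2.52 to −0.53 with a library left out, was at −1.21 (SE 0.70).

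Genes of cadherin turnover and cell-matrix anchors give a further setting. Of 12 turnover genes 8 were lower, with a median of −0.06 that was 0.04 without mock library Q. The protease ADAM15 was at 0.59 (SE 0.25), while the scaffold IQGAP1 (−0.32, SE 0.27) and the phosphatase PTPN14 (−0.16, SE 0.32) became 0.01 and 0.22 once mock library Q was left out, and PTPN14 was 0.08 without H2O2 library H and 0.21 with limma on FPKM. All 5 hemidesmosome genes, which anchor keratin to the matrix, were lower with a median of −0.71, which was −0.25 without mock library Q. Integrin ITGB4 was at −0.98 (SE 0.29), the linker DST at −0.71 (SE 0.43) and plectin, PLEC, at −0.68 (SE 0.34). None of the genes of these lists passed an adjusted p of 5% over all genes (edgeR). The hepatocyte marker sum was lowest in mock library Q, the library whose omission moved the keratin, turnover and hemidesmosome medians. For other cadherins too the median moved most without mock library Q, to 0.06, and it was −0.38 without mock library H. The remaining list medians moved most without other libraries. These were other adherens junction genes without mock library H, CDH1 repressors without H2O2 library H, and activators and other desmosome genes without H2O2 library Q. The part of the hepatocyte marker sum in the differences was not tested.

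**Figure D5:**
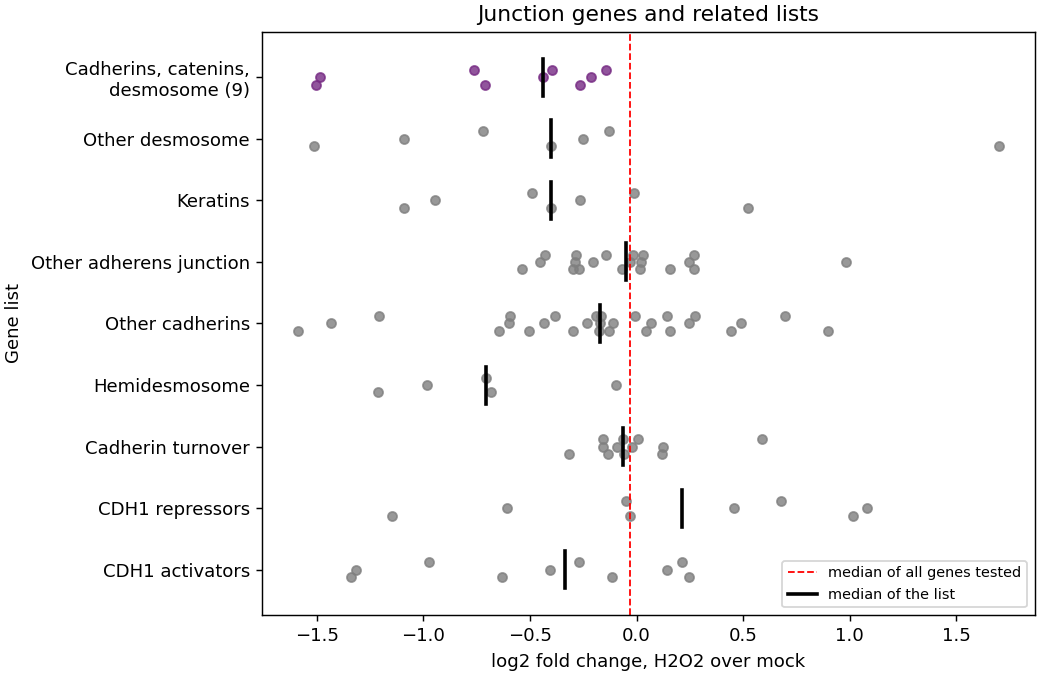
Log2 fold change of H2O2 over mock for each tested gene of the lists (points), with the list median (black bar) and the median of all genes tested (dashed line). The 9 cadherin, catenin and desmosome genes lie below 0, with CDH1 and JUP furthest, while other adherens junction and cadherin turnover genes lie around the median of all genes.

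The genes whose pattern over the 4 libraries was most like that of CDH1 were found by the distance between mean-centred log2 levels, among 9964 other genes with an mRNA row and at least 10 CPM on average. They were CDS1, a phospholipid-pathway enzyme (distance 0.07), RALGPS1, an exchange factor (0.16), TMEM144, a membrane protein (0.29), EPCAM, the epithelial adhesion molecule (0.30), and MARCH9, a ubiquitin ligase (0.32). EPCAM measured 66.8 and 64.0 CPM in the H2O2 pair, against 273 and 173 CPM in the mock pair (−1.77, SE 0.28), and CDS1 at −1.45 (SE 0.26). Set among those 9964 genes, with the rest of the 10 left out, JUP would be 46th at a distance of 0.76 and DSP 205th at 0.99. Within H2O2, library Q over library H was 0.58 for JUP and 0.53 for DSP but −0.24 for CDH1.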

How the data were processed

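TruSeq libraries of total RNA from H2O2- and mock-treated Huh7 cells were sequenced, per the labels' protocols. The submitters' processing notes name CASAVA, TopHat 1.3.3, Bowtie 0.12.2 and Cuffdiff, with builds mm8, hg19 and GRCh37 in no stated role. How reads were counted, with which annotation and strand setting, is not given in the sources. Each of 58146 deposited transcript rows holds, per the file headers, the count of reads and an FPKM. The deposited counts were whole numbers and repeat over isoforms, so 1 row per gene (the highest total) was kept, giving 113082498, 112972746, 103851326 and 108117565 reads in H2O2 H, H2O2 Q, mock H and mock Q. These exceed the mapped mates, so some reads were counted more than 1 time and counting intervals are too narrow. Exon shares and levels per kilobase rest on these same counts. The deposited FPKM values do not follow reads per length and served in alternatives only.

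Genes with at least 10 reads in at least 2 libraries (27702) were fitted by edgeR 4.0.16 (quasi-likelihood, 2-sided, TMM, treatment as sole term, 2 residual degrees of freedom). Benjamini-Hochberg adjustment ran over all genes. The fit was also run on simulated counts drawn without a letter effect, so that run says nothing of the part of the letters. Alternatives used DESeq2 1.42.0, limma 3.58.1 on log2(FPKM + 1) or + 0.1, other scalings and filters, summed rows, a block by letter and each library left out. A group was separated when both CPM lay beyond both of the other. Within-letter ratios used CPM plus 0.1. The SE of a difference is its absolute value over the square root of the F statistic of the edgeR test. Lengths and exons came from GENCODE v29 by RefSeq accession (JUP by symbol, principal model). Lists covered other adherens junction, cadherin and desmosome genes, keratins, CDH1 repressors and activators, cadherin turnover, hemidesmosomes and markers of hepatocytes, bile duct, fibroblasts, endothelium, blood and keratinocytes. The genes named are the 10, CTNNB1, the 3 of largest difference in each list with mean CPM of at least 1, and the 5 most like CDH1. SNAI3, under that level, was added as the repressor with the largest downward difference. Members and lists were chosen with earlier results of these data known. Keratinocyte markers summed to 12.1 and 13.3 CPM in H2O2 H and Q and 14.4 and 15.5 CPM in mock H and Q.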

Additional observations from a re-analysis of the deposited data

How the results depend on the processing

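The 9 tested genes were lower in H2O2 under all 14 alternative settings, and CDH1 ranged from −1.74 to −1.22 and JUP from −1.79 to −1.22 with a library left out. Their median difference ranged from −0.82 to −0.32 over these. Calls depended on the setting: 0 genes passed in edgeR, 138 with DESeq2 (105 lower, 33 higher), 9 without a read filter (9 lower), 0 to 11 with a library left out (0 to 10 lower, 0 to 1 higher), the 11 without mock library Q. With the letter as a replicate block 42 passed (36 lower, 6 higher). CDH1 and JUP were the 2 of the 9 genes called with DESeq2 (adjusted p = 0.0043 and 0.00489) and the 2 called with the replicate block (adjusted p = 0.0419 and 0.0469 in edgeR), and 0 were called in the other settings, where the adjusted p of CDH1 ran from 0.223 to 1. The labels do not say that a letter marks a shared culture; deviations of same-letter libraries correlated at 0.464 over genes, and with the letters crossed 0 genes passed.

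With a library left out the list medians ranged from −0.24 to 0.06 (other adherens junction), −0.38 to 0.06 (other cadherins), −0.60 to −0.27 (other desmosome), −0.83 to 0.07 (keratins, 3 to 7 lower), −0.18 to 0.27 (CDH1 repressors), −0.72 to −0.31 (activators), −0.12 to 0.04 (turnover, 4 to 8 lower) and −1.02 to −0.25 (hemidesmosome). With limma on FPKM plus 1 or plus 0.1, 1 of the CDH1 repressors was lower, the activator median was −0.08, and 4 turnover genes were lower with a median of 0.04; the cause was not tested. Having 2 libraries a group limits all of this, and PKP3 was under the depth at which a difference could be seen.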
